A study of Saccharomyces cerevisiae with 3 samples.

Results

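Transcripts of the budding yeast Saccharomyces cerevisiae were compared between cells that overexpressed the Ssz1 protein with the substitution S295F and cells with the vector plasmid, across all genes of the array. Of the 3 arrays in the series, 2 make up this comparison, 1 for Ssz1 S295F and 1 for vector, and the 5777 genes measured on both were all kept. The strain of every group was DS10, and the sample titles call every group WT (wild type). Every group held pRS415, a plasmid kept at low copy, in which the GPD promoter (that of TDH3, a strong one) drove the insert. The insert was Ssz1 S295F, residues 365 to 433 of Zuo1 with S427G, or, in the vector group, TAP, which the labels do not explain. All groups were fresh transformants grown to log phase without leucine, so the vector cells carried the plasmid and its LEU2 marker too. RNA of 3 cultures per plasmid was pooled before labelling, so each group has 1 array and no spread between cultures. No test between conditions is possible, and the text gives sizes only.

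Ssz1 is an Hsp70-type protein that binds ribosomes together with the J-protein Zuo1, as the ribosome-associated complex, and helps new protein chains fold. Apart from the ribosome, both proteins are known to activate Pdr1, the transcription factor of pleiotropic drug resistance. Hsp70 proteins have an ATP-binding domain and a substrate-binding domain, and Ssz1 has been studied as an unusual member that does not need ATP hydrolysis.

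Values are RMA intensities on a linear scale, with 3 values per gene and array from 3 blocks of probes. A log2 ratio is the mean log2 intensity of the Ssz1 S295F array minus that of the vector array, and the ± beside it is the SD of the ratio over the 3 blocks, which covers technical noise within the arrays and nothing between cultures. A gene is called higher or lower where the log2 ratio reaches 1 in size, that is 2-fold. A low reading is one below the 5th percentile of its array, which was 193 for Ssz1 S295F and 211 for vector. A length-adjusted ratio is the ratio minus its smooth trend with coding span, the distance from start to stop codon, and is centred at 0 over all genes.

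The SSZ1 transcript had an intensity of 19318 with Ssz1 S295F, 12001 with the Zuo1 fragment and 10279 with vector, a log2 ratio of 0.91 ± 0.07 for Ssz1 S295F over vector. Values per gene do not separate the plasmid's transcript from the chromosome's. The ratio stayed under 2-fold, and SSZ1 was among the 10 genes with the largest gain in linear intensity. ZUO1, its partner, read 13744 with Ssz1 S295F and 13337 with vector. LEU2, the plasmid marker, read 17711 with Ssz1 S295F and 20669 with vector, and TDH3, whose promoter drives the constructs, read 39255 and 40459 on those arrays, so neither differed by 2-fold. Markers of mating type were read too. The 7 MATa-specific genes, such as the pheromone receptor gene STE2, summed to 48063 with Ssz1 S295F and 59438 with vector. The 4 MATalpha-specific genes summed to 2687 and 3119, most of it from SAG1, with 2206 and 2268. MF(ALPHA)2 read 413 and 803 on those arrays. STE3, with 61.7 and 37.9, and MF(ALPHA)1, with 7.34 and 9.13, had low readings on both. No marker of haploid, MATa, MATalpha or sporulating cells passed 2-fold.

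Over all genes, 290 of 5777 were higher past 2-fold with Ssz1 S295F (5.02%) and 160 were lower (2.77%), 450 in either direction (7.79%). Of these, 251 of the higher and 129 of the lower genes passed in each of the 3 blocks. The median log2 ratio over all genes was -0.15, and the median SD over blocks was 0.04. A ratio of 2 or more was reached by 69 higher genes, and one of -2 or less by 7 lower genes. A low reading on at least 1 array stood behind 56 of the 290 higher and 68 of the 160 lower genes. Higher genes had longer coding spans, with a median of 1809 bp, against 441 bp for lower genes and 1233 bp for all genes. With the ratio adjusted for span, 293 genes passed upwards and 54 downwards. Among these, 255 and 50 had been called before the adjustment. The split moved with scaling, to 394 higher and 90 lower genes with the ratios centred on their median, and to 357 and 82 after a further quantile normalization of the 3 arrays. Of the 290 higher genes, 207 were also higher past 2-fold with the Zuo1 fragment over vector, where 210 of all genes were higher. Most higher genes were thus called in both comparisons. Both use the same vector array, so a low value there raises both ratios, and the overlap cannot tell what the constructs share. Values of the Zuo1 fragment array are given beside some of the others below.

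The largest ratios were those of PTH1, MET13, GUT2, YPK2 and CAN1 among the higher genes that met the brightness rule, from 4.60 for PTH1 to 3.08 for CAN1, and of DAN1 and TIR1 among the lower genes, with -6.38 and -4.05. PTH1 had a low reading with vector and DAN1 with Ssz1 S295F.

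Words of the array's gene descriptions were used to form 19 groups. The group with the largest share of higher genes was singled out after its values were seen. Genes whose descriptions name a transcription factor, activator, repressor or regulator numbered 225, and 23 of them were higher (10.2%) while 2 were lower (0.889%), against 5.02% and 2.77% over all genes. After adjustment for coding span 24 were higher and 2 lower. The words of the descriptions also took 4 genes that are not transcription factors, PHR1, FRE8, CIS1 and YGR035C, which leaves 19 higher. Such genes were taken out among the higher genes only, after values were seen, so the 19 have no share to compare with all genes. Of those 19, 18 stayed past 2-fold after the span adjustment.

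RTG1 and RTG3 encode the paired transcription factors of the retrograde pathway, through which mitochondrial state changes nuclear transcription. RTG1 read 2804 with Ssz1 S295F, 2327 with the Zuo1 fragment and 482 with vector, a log2 ratio of 2.54 ± 0.07 for Ssz1 S295F over vector. RTG3 read 4614, 3907 and 1229 on the same arrays, with a ratio of 1.91 ± 0.02. Other regulators of the pathway were under 2-fold. RTG2, the cytoplasmic activator, had a ratio of 0.08 ± 0.17, and MKS1, an inhibitor of Rtg1 and Rtg3, had -0.15 ± 0.07. Of 8 retrograde regulators, in a list made after values were seen, 2 passed 2-fold, against 7.79% of all genes.

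Of 7 genes that Rtg1 and Rtg3 activate, also listed after values were seen, 1 passed 2-fold (14.3%, against 7.79%). PYC1, which encodes pyruvate carboxylase, read 8433 with Ssz1 S295F and 3520 with vector, a ratio of 1.26 ± 0.13. CIT2, the peroxisomal citrate synthase commonly used as the readout of the pathway, read 4515 and 4892 on those arrays, a ratio of -0.12 ± 0.03. DLD3, a D-lactate dehydrogenase gene of the pathway, had 0.18 ± 0.05.

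**Figure D1:**
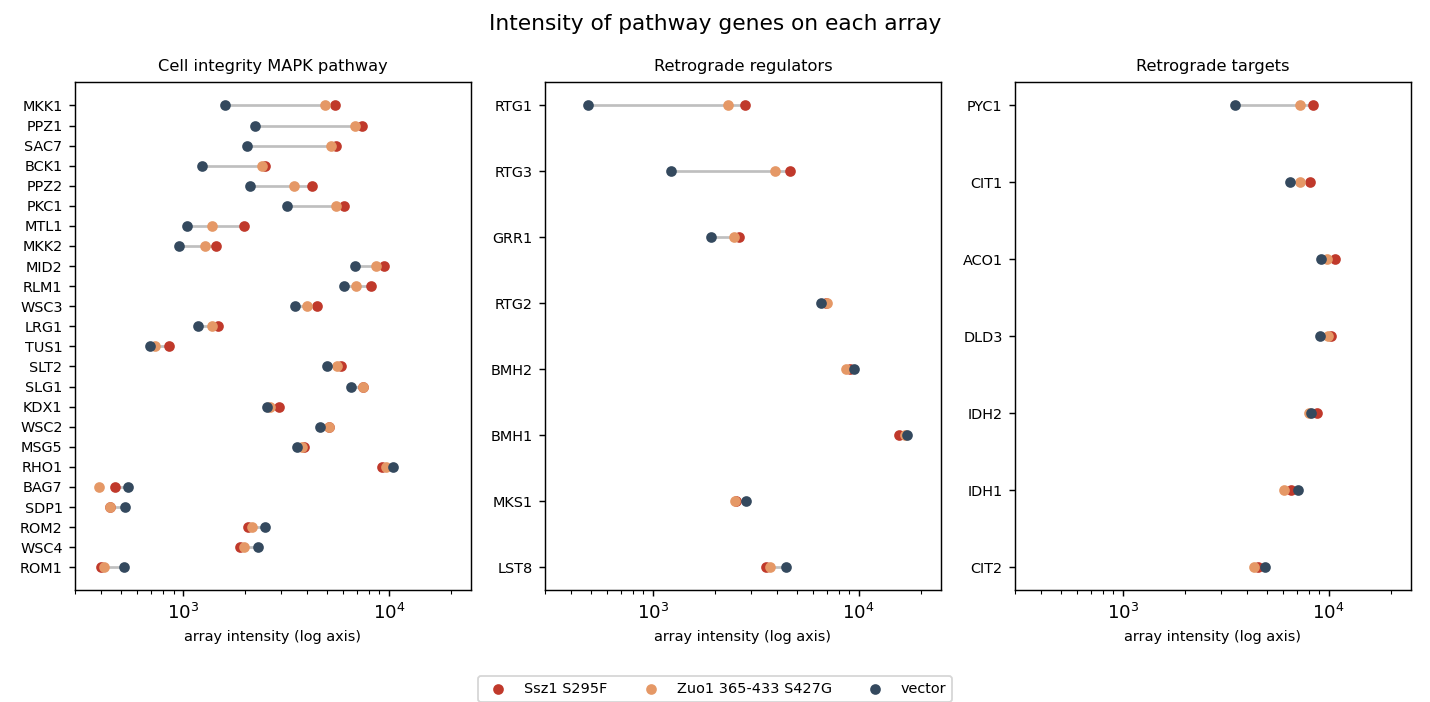
Intensity (log axis) of the genes of the cell integrity MAPK pathway (left), the retrograde regulators (middle) and the retrograde targets (right), with 1 point for each array. RTG1, RTG3 and PYC1 lie apart on the Ssz1 S295F and vector arrays, while CIT2 reads 4515 with Ssz1 S295F and 4892 with vector.

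Other regulators reached 2-fold with roles in metabolism and growth. VHR1, which activates biotin uptake genes, read 7169 with Ssz1 S295F, 4450 with the Zuo1 fragment and 1991 with vector, a ratio of 1.85 ± 0.01 for Ssz1 S295F over vector. Its uptake targets were under 2-fold. VHT1, the biotin transporter gene, had a ratio of -0.25 ± 0.04 and BIO5 had 0.06 ± 0.03. PHO2, a homeobox regulator that acts with Pho4, had 1.78 ± 0.04, and SFP1, an activator of ribosomal protein and ribosome biogenesis genes, read 6482 with Ssz1 S295F and 2211 with vector, a ratio of 1.55 ± 0.08.

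The pair ADR1 and CAT8, which activate genes for growth on ethanol and other non-fermentable carbon sources, were past 2-fold with Ssz1 S295F and under 2-fold with the Zuo1 fragment, a difference that was not tested. ADR1 read 1842 with Ssz1 S295F, 929 with the Zuo1 fragment and 723 with vector, a ratio of 1.35 ± 0.09 against vector, while the Zuo1 fragment over vector was 0.36. CAT8 read 1155, 588 and 492 on the same arrays, with a ratio of 1.23 ± 0.01 against vector and 0.26 for the Zuo1 fragment over vector. None of 16 known targets of Adr1 and Cat8 passed 2-fold, and their median ratio was -0.17, against -0.15 over all genes, in a list made after values were seen.

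Regulators tied to the cell cycle were FKH2, with 1.45 ± 0.11, and its partner in mitotic transcription NDD1, with 1.20 ± 0.03. MIG1, the glucose repressor, had 1.16 ± 0.07, and MOT3, a repressor of hypoxic genes, had 1.16 ± 0.03. TUP1, the corepressor that Mig1 and Nrg proteins recruit, read 9482 with Ssz1 S295F and 3144 with vector, a ratio of 1.59 ± 0.01. Of 11 genes for Tup1 and its partners, listed after values were seen, 3 were higher (27.3%) and 1 lower (9.09%). Over all genes the shares were 5.02% and 2.77%. The higher ones were MIG1, MOT3 and TUP1, the list median was 0.19, and CYC8 had 0.48 ± 0.07. STE12, the factor of mating and filamentous growth, had 1.13 ± 0.08, and RPN4, the activator of proteasome genes, had 1.11 ± 0.07. YAP7, a bZIP factor, had 1.86 ± 0.05.

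The 2 lower regulators both have roles in repression or signalling. NRG2, a repressor linked to glucose and pH, read 765 with Ssz1 S295F, 1167 with the Zuo1 fragment and 2395 with vector, a ratio of -1.65 ± 0.04. RPI1, which acts on the Ras pathway and in wall genes, read 93.5 with Ssz1 S295F, below the 5th percentile of that array, and 279 with vector, a ratio of -1.58 ± 0.08.

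**Figure D2:**
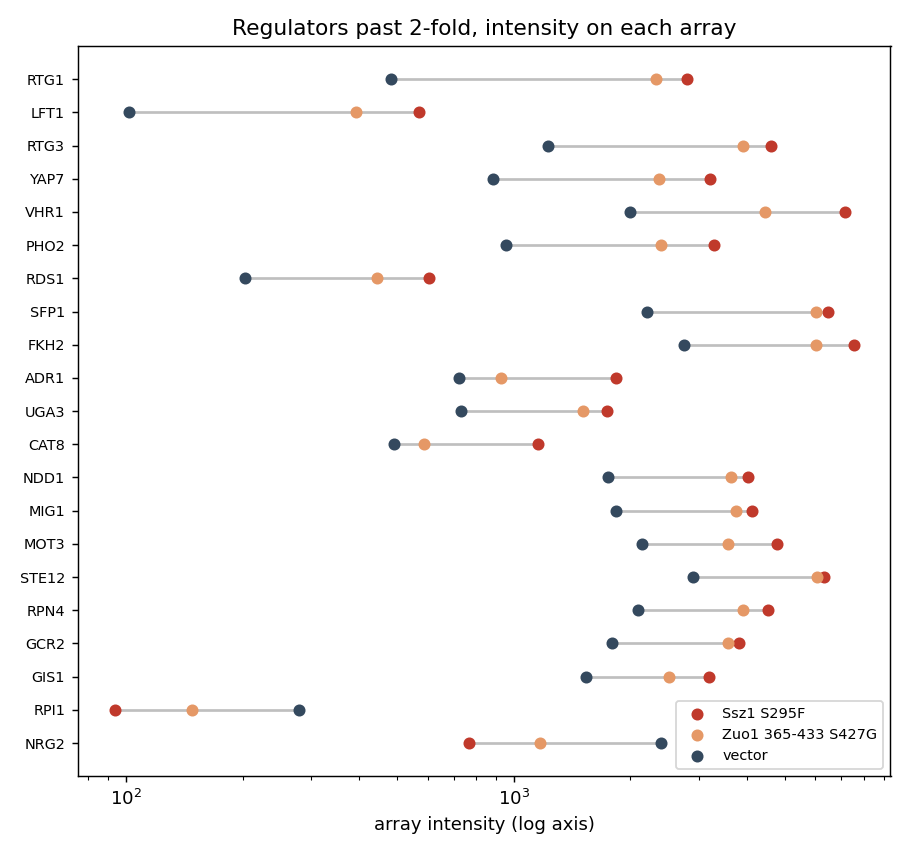
Intensity (log axis) of 21 regulators past 2-fold on each of the 3 arrays, the line joining Ssz1 S295F and vector. RTG1, RTG3 and VHR1 are higher with Ssz1 S295F than with vector, and NRG2 and RPI1 are lower, while the Zuo1 fragment points of ADR1 and CAT8 lie near the vector points.

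The cell integrity pathway runs from wall sensors through Rho1 and Pkc1 to the MAP kinase Slt2, and keeps the wall intact under stress. In a list made after values were seen, 5 of 24 genes were higher (20.8%, against 5.02% of all genes) and none lower, with a list median of 0.31, against -0.15 over all genes. MKK1, a MAP kinase kinase of the pathway, read 5509 with Ssz1 S295F, 4880 with the Zuo1 fragment and 1599 with vector, a ratio of 1.78 ± 0.05. PPZ1, a protein phosphatase tied to wall integrity and salt tolerance, had 1.72 ± 0.04 and its paralog PPZ2 had 1.01 ± 0.07. SAC7, a GTPase-activating protein for Rho1, had 1.43 ± 0.20, and BCK1, the kinase above Mkk1, had 1.03 ± 0.06.

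SLT2, the gene of the MAP kinase, had a ratio of 0.22 ± 0.15, and PKC1 had 0.92 ± 0.03. After the span adjustment 3 of the 24 genes were higher. HKR1, a signalling mucin of the osmotic stress pathway, read 3919 with Ssz1 S295F and 1555 with vector, a ratio of 1.33 ± 0.03, and was the only one of 24 genes of that pathway past 2-fold.

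Across 53 gene lists holding 1703 genes, 70 genes were higher (4.11%) and 9 were lower (0.528%), against 5.02% and 2.77% over all genes. List medians lay between -0.35 for mitochondrial protein import and 0.49 for galactose, maltose and sucrose use, and between -0.16 and 0.40 after the span adjustment. Of the 53 lists, 38 held 1 to 3 higher genes, 3 held more and 12 held none. In 9 lists no gene passed 2-fold in either direction. These were COPII, COPI and Golgi transport (53 genes), tRNA modification and O-mannosylation with GPI anchors (39 each), mitochondrial carriers (32), the nuclear pore (31), RNA polymerase II and its general factors (29), phosphoinositides (27), the V-ATPase (22) and calcium with calcineurin (19).

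**Figure D3:**
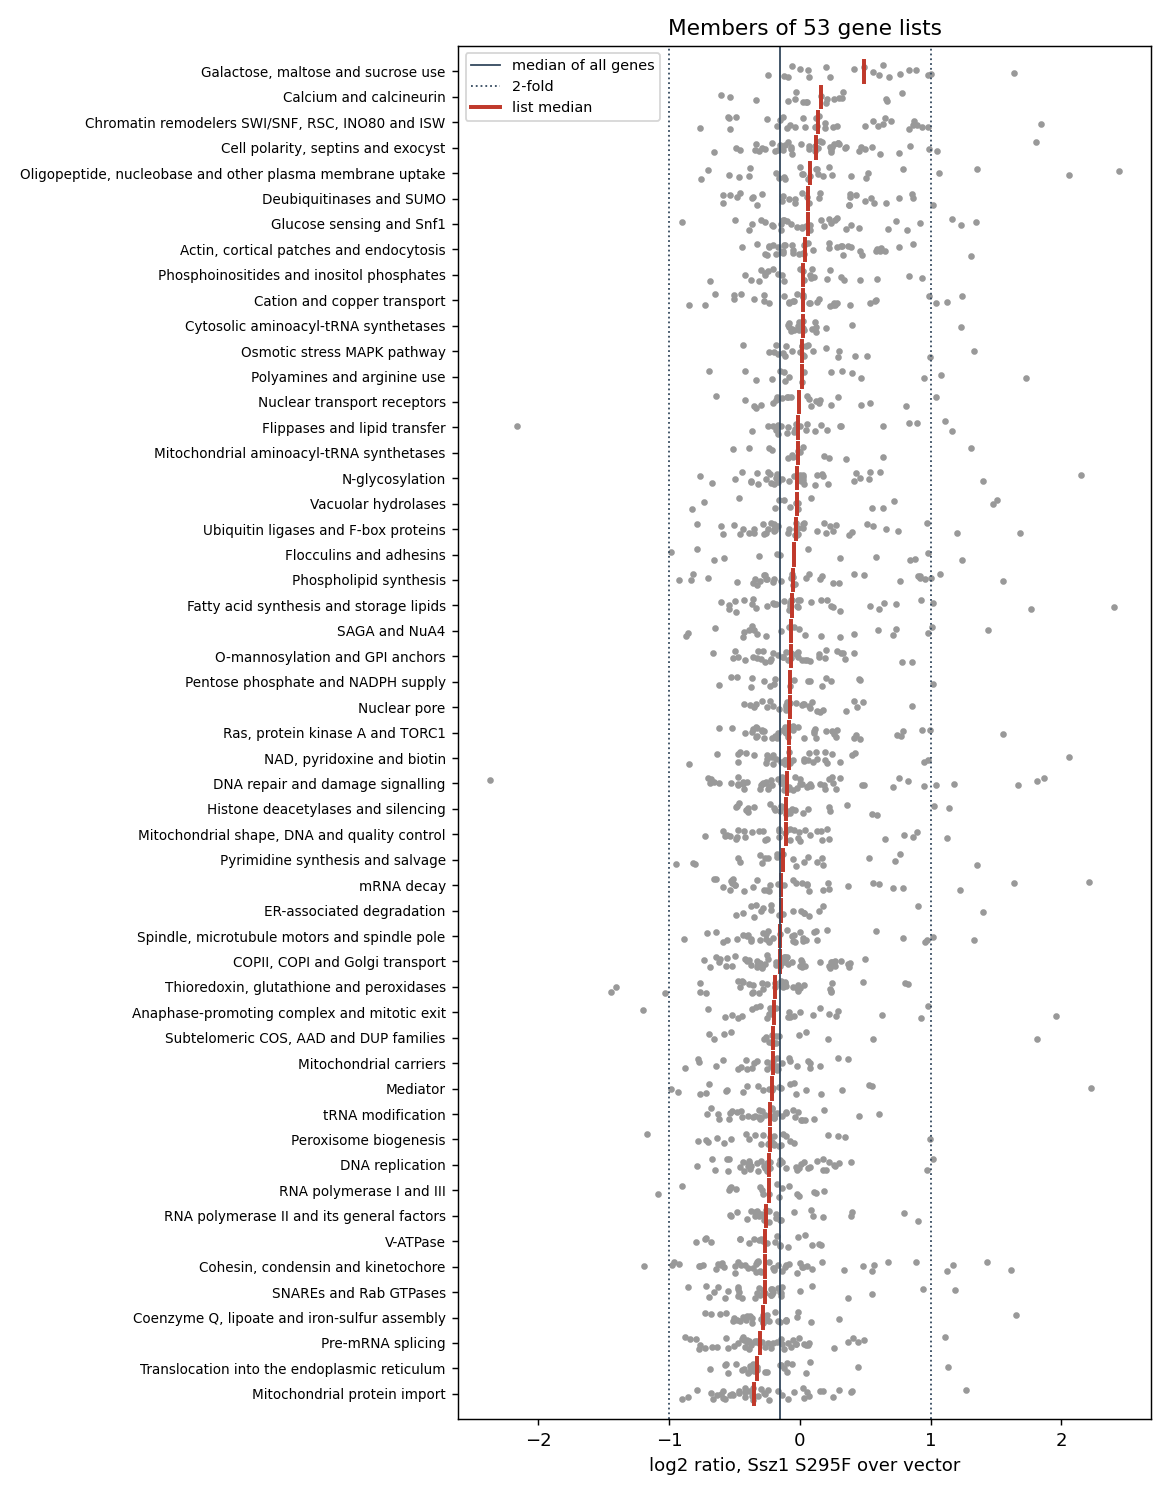
Log2 ratio of Ssz1 S295F over vector for every member (grey points) of 53 gene lists ordered by their medians (red bars), with the median of all genes (-0.15) and the 2-fold bounds. Medians stay between -0.35 and 0.49, and members past 2-fold are scattered over many lists.

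In mRNA export and decay, HPR1, a subunit of the THO complex that couples transcription to export, read 2626 with Ssz1 S295F, 2095 with the Zuo1 fragment and 432 with vector, a ratio of 2.60 ± 0.03. It was the only one of 9 THO and TREX genes past 2-fold, in a list made after values were seen. PAT1, a decapping activator, read 8248 with Ssz1 S295F and 1784 with vector, a ratio of 2.21 ± 0.08. PUF3, which binds mRNAs of mitochondrial proteins and promotes their decay, read 1967 with Ssz1 S295F, 1158 with the Zuo1 fragment and 633 with vector, a ratio of 1.63 ± 0.03. NAM7, the helicase of nonsense-mediated decay, had 1.22 ± 0.03. YJU2, a splicing factor, had 2.70 ± 0.03 and PRP18, another splicing factor, had 1.11 ± 0.07. SPT10, a regulator of histone gene transcription, read 2005 with Ssz1 S295F and 354 with vector, a ratio of 2.50 ± 0.01.

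In chromatin, ARP8, an actin-related subunit of the INO80 remodeler, read 3334 with Ssz1 S295F and 929 with vector, a ratio of 1.84 ± 0.07. SGF29, a SAGA subunit that reads histone methylation, had 1.44 ± 0.04. The histone deacetylase HDA1 and its partner HDA3 had 1.14 ± 0.07 and 1.02 ± 0.08, and EPL1, a NuA4 subunit, had 1.01 ± 0.06. NUT2, a Mediator subunit, read 248 with Ssz1 S295F and 53.4 with vector, below the 5th percentile of the vector array.

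Of 62 DNA repair and damage signalling genes, 5 were higher (8.06%) and 1 lower (1.61%), against 5.02% and 2.77% over all genes. RAD1, the endonuclease subunit of nucleotide excision repair, read 3126 with Ssz1 S295F, 3017 with the Zuo1 fragment and 890 with vector, a ratio of 1.81 ± 0.05. RAD4, the damage recognition factor of the same pathway, had 1.67 ± 0.12. Of 11 genes of that pathway, listed after values were seen, these 2 were higher (18.2%, against 5.02%) and none lower. The median of the 11 was 0.08, against -0.15 over all genes. REV1, a translesion polymerase, had 1.18 ± 0.06 and PHR1, the photolyase, had 1.04 ± 0.14. HUG1, a gene induced by DNA damage, read 121 with Ssz1 S295F and 624 with vector, a ratio of -2.37 ± 0.07 with a low reading on the Ssz1 S295F array. XRS2, of the complex that first processes DNA breaks, read 716 with Ssz1 S295F, 661 with the Zuo1 fragment and 197 with vector, a ratio of 1.86 ± 0.04 with a low reading on the vector array.

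In a list of 18 recombination and strand repair genes made after values were seen, 4 were higher (22.2%) and 1 lower (5.56%). Over all genes the shares were 5.02% and 2.77%. The list median was -0.26, against -0.15 over all genes. The higher genes were XRS2, SAE2, which acts with that complex and had a low reading on the vector array, SMC6, a subunit of the Smc5/6 complex, with 1.61 ± 0.04, and TOP3, a topoisomerase, with 1.57 ± 0.04. SHU1, a member of the Shu complex that aids recombination, read 264 with Ssz1 S295F, 316 with the Zuo1 fragment and 583 with vector, a ratio of -1.14 ± 0.05, which was -0.67 after the span adjustment. The other Shu complex genes, PSY3, SHU2 and CSM2, had -0.95, -0.84 and -0.78 and stayed under 2-fold.

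In chromosome segregation and division, IQG1, the IQGAP protein of cytokinesis, read 1362 with Ssz1 S295F and 390.0 with vector, a ratio of 1.80 ± 0.06. CEP3, a centromere-binding kinetochore subunit, had 1.43 ± 0.01, and MPS3, a spindle pole body protein, had 1.33 ± 0.07. ORC1, a subunit of the origin recognition complex, had 1.02 ± 0.06 and was under 2-fold after the span adjustment. SPC25, a kinetochore subunit, had -1.19 ± 0.05, and CDC26, a subunit of the anaphase-promoting complex, had -1.20 ± 0.06. Neither SPC25 nor CDC26 stayed past 2-fold after the span adjustment, where CDC26 had -0.69. WHI5, the repressor of the start of the cell cycle, read 699 with Ssz1 S295F, 442 with the Zuo1 fragment and 79.0 with vector, with a low reading on the vector array.

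In lipid metabolism, LRO1, which makes triacylglycerol from phospholipid, read 4387 with Ssz1 S295F, 3265 with the Zuo1 fragment and 829 with vector, a ratio of 2.40 ± 0.10. TGL5, a lipase of lipid droplets, had 1.77 ± 0.02, and PAH1, the phosphatidate phosphatase at the branch of storage and membrane lipid synthesis, had 1.55 ± 0.06. DRS2, a lipid flippase, had 1.11 ± 0.05 and PLB1, a phospholipase, had 1.07 ± 0.13. SPO14, a phospholipase D, read 2463 with Ssz1 S295F and 1229 with vector, with an SD over blocks of 0.47, against a median of 0.04 over all genes.

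Lower genes of this kind included several tied to sterols. HES1, an oxysterol-binding protein homolog, read 196 with Ssz1 S295F, 272 with the Zuo1 fragment and 880.0 with vector, a ratio of -2.17 ± 0.11. IZH4, of a family linked to sterol and zinc levels, had -1.94 ± 0.04, and ATF2, which acetylates sterols, had -1.08 ± 0.09. In a list of 12 sterol-ester and lipid response genes made after values were seen, 4 were lower (33.3%, against 2.77% of all genes) and none higher. The list median was -0.32, against -0.15 over all genes, and 4 of the 12 genes were above that all-gene median. ARE1 and ARE2 were among those, with 0.67 and 0.23. FHN1, the fourth of the lower genes, read 51.6 with Ssz1 S295F, 64.7 with the Zuo1 fragment and 145 with vector. These were low readings on both arrays compared, with a ratio of -1.49 ± 0.13.

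In secretion and the wall, MNN2, a mannosyltransferase that extends N-glycans, read 10574 with Ssz1 S295F, 9075 with the Zuo1 fragment and 2389 with vector, a ratio of 2.15 ± 0.09. PRY3, a secreted wall protein of a sterol-binding family, read 15987 with Ssz1 S295F and 3779 with vector, a ratio of 2.08 ± 0.04. SIM1, a wall protein of the SUN family, had 2.33 ± 0.32, the ratio moving more between blocks than for most genes. SEC61, the channel of the endoplasmic reticulum, had 1.13 ± 0.03. APL4, an adaptor subunit of clathrin coats, had 2.19 ± 0.03 and was the only one of 13 adaptor genes past 2-fold, a list also made after values were seen. PRB1, a vacuolar protease, had 1.47 ± 0.05. NCA3, a SUN family gene, had -1.01 ± 0.06, which was -0.79 after the span adjustment.

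Among the 53 lists, that of uptake genes held the highest share of higher genes, 4 of 29 (13.8%), against 5.02% of all genes. Smaller lists made after values were seen, such as that of the cell integrity pathway, had higher shares. THI72, a thiamine transporter homolog, read 651 with Ssz1 S295F, 585 with the Zuo1 fragment and 120 with vector, a ratio of 2.44 ± 0.08 with a low reading on the vector array. NRT1, a nicotinamide riboside transporter, read 4022 with Ssz1 S295F and 968 with vector, a ratio of 2.06 ± 0.07. MCH4, a transporter related to monocarboxylate permeases, had 1.36 ± 0.20, and ARN1, a siderophore transporter, had 1.06 ± 0.17. Transporters of other lists passed 2-fold too. TRK2, a potassium transporter, had 1.24 ± 0.06, CCC2, which moves copper into the secretory pathway, had 1.13 ± 0.05, and PUT4, the proline permease, had 1.73 ± 0.18.

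Genes of galactose, maltose and sucrose use had the highest list median, 0.49, against -0.15 over all genes. Of the 21 genes in the list, 2 were higher (9.52%, against 5.02% of all genes), and 1 after the span adjustment. Without the 25% of genes lowest in level the list median was 0.20. MAL13, an activator of maltose genes, read 1185 with Ssz1 S295F, 863 with the Zuo1 fragment and 381 with vector, a ratio of 1.64 ± 0.26. MPH2, a maltose permease, had 1.01 ± 0.03, which was 0.91 after the span adjustment. MAL31, another maltose permease, had 0.98 ± 0.05 and stayed under 2-fold. SUC2, the invertase gene and under 2-fold, read 5677 with Ssz1 S295F and 3647 with vector, a ratio of 0.64 ± 0.03. GAL1, the galactokinase gene, read 576 and 628 on those arrays, a ratio of -0.12 ± 0.02. Maltose genes exist in near-identical copies, so their probes can read more than 1 gene.

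In mitochondrial functions and metabolism, TAH18, an electron donor of iron-sulfur protein assembly outside the organelle, read 3696 with Ssz1 S295F and 1175 with vector, a ratio of 1.65 ± 0.02. MAS2, a subunit of the peptidase that removes presequences from imported proteins, had 1.27 ± 0.08 and was the only one of 44 import genes past 2-fold. PIM1, the Lon protease of the matrix, had 1.13 ± 0.21. ATP10, an assembly factor of ATP synthase, read 1369 with Ssz1 S295F, 997 with the Zuo1 fragment and 301 with vector, a ratio of 2.19 ± 0.01. URA7, a CTP synthase, had 1.36 ± 0.06, and TKL1, a transketolase of the pentose phosphate pathway, had 1.01 ± 0.07.

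In protein turnover, TOM1, a large ubiquitin ligase, read 2654 with Ssz1 S295F, 2123 with the Zuo1 fragment and 827 with vector, a ratio of 1.68 ± 0.04. DMA2, a ubiquitin ligase that acts in spindle positioning, had 1.20 ± 0.04. USA1, a scaffold of degradation at the endoplasmic reticulum, had 1.40 ± 0.11 and was the only one of 20 genes of that list past 2-fold. Of 45 ubiquitin ligase and F-box genes 2 were higher and none lower, a share under that of all genes.

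Among the 53 lists, that of redox genes held the highest share of lower genes, 3 of 39 (7.69%), against 2.77% of all genes, and no higher gene. The list of sterol-ester and lipid response genes above, made after values were seen, had a higher share. TSA2, a peroxiredoxin, read 282 with Ssz1 S295F, 372 with the Zuo1 fragment and 767 with vector, a ratio of -1.45 ± 0.01. GRX8, a glutaredoxin, had -1.41 ± 0.03, and GPX1, a glutathione peroxidase, had -1.03 ± 0.02 with a low reading on the Ssz1 S295F array. Of the 3, only TSA2 stayed past 2-fold after the span adjustment, with a ratio of -1.03.

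NCP1, the reductase that gives electrons to cytochrome P450, had the largest gain in linear intensity, with 17409 for Ssz1 S295F, 16300.4 for the Zuo1 fragment and 4626 for vector, a ratio of 1.91 ± 0.02. CCW12, an abundant wall protein gene, had the largest loss, with 30224 with Ssz1 S295F and 36894 with vector, a ratio of -0.29 ± 0.04 that was 0.21 after the span adjustment.

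Genes described as of unknown function numbered 1210 in the array's annotation, and 65 were higher (5.37%) and 79 lower (6.53%), against 5.02% and 2.77% over all genes. After the span adjustment 82 were higher and 21 lower. TVS1, one of them, read 12242 with Ssz1 S295F, 9673 with the Zuo1 fragment and 1598 with vector, a ratio of 2.94 ± 0.05. AMF1, which encodes an ammonium transporter, had 2.79 ± 0.08, and YMR317W, with no known role, had 2.29 ± 0.03. On the lower side YLR297W read 1725 with Ssz1 S295F, 2311 with the Zuo1 fragment and 5218 with vector, a ratio of -1.60 ± 0.13. TDA6 had -1.46 ± 0.06 and YDR222W had -1.40 ± 0.02.

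Further genes with large ratios had roles outside these groups. VAM10, needed for vacuole fusion, read 5073 with Ssz1 S295F, 4172 with the Zuo1 fragment and 636 with vector. Its coding span overlaps that of another gene, so its reading may not be its own alone. YCK3, a casein kinase of the vacuole, had 2.75 ± 0.04, ATG15, a vacuolar lipase, had 2.80 ± 0.05, and RTK1, a putative protein kinase, had 2.26 ± 0.04. Words for a kinase were in 298 descriptions, of which 22 genes were higher (7.38%) and 4 lower (1.34%), against 5.02% and 2.77% over all genes. ACF2, an endoglucanase, had 2.34 ± 0.07, and PPM2, a methyltransferase that modifies a tRNA base, had 2.44 ± 0.01.

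Ty retrotransposons are copies of mobile elements that make a Gag protein (TYA) and a Gag-Pol fusion (TYA-TYB). Their 61 genes had a median ratio of 0.59 with Ssz1 S295F, and 49 were above 0. Past 2-fold, 4 were higher (6.56%, against 5.02% of all genes) and none lower (against 2.77%). Of those higher, YHL009W-A and YJL114W had low readings on both arrays compared. The coding spans of 42 of the 61 genes overlap another gene. The 30 TYA genes had a median of 0.63 (-0.11 to 1.29), and the 31 TYA-TYB genes had a median of 0.05 (-0.68 to 1.36), which is above the all-gene median of -0.15. The kinds are not separate elements, as a TYA span can lie inside a TYA-TYB span. YMR046C lies inside YMR045C, and they had 0.80 and 0.0025. Whether transcripts of the kinds differ was not tested. With the Zuo1 fragment over vector the medians were 0.41 for TYA and 0.01 for TYA-TYB. YAR010C, a TYA gene, read 24979 with Ssz1 S295F, 20803 with the Zuo1 fragment and 15689 with vector, a ratio of 0.67 ± 0.02. Many copies of Ty are near-identical, so their probes can read more than 1 copy, and the genes are not independent readings. Not all copies read alike. YHL009W-B read 182 with Ssz1 S295F and 96.3 with vector, and the TYA-TYB genes YIL082W-A and YGR109W-B had ratios of 1.36 and -0.68. The medians pool such unlike copies.

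**Figure D4:**
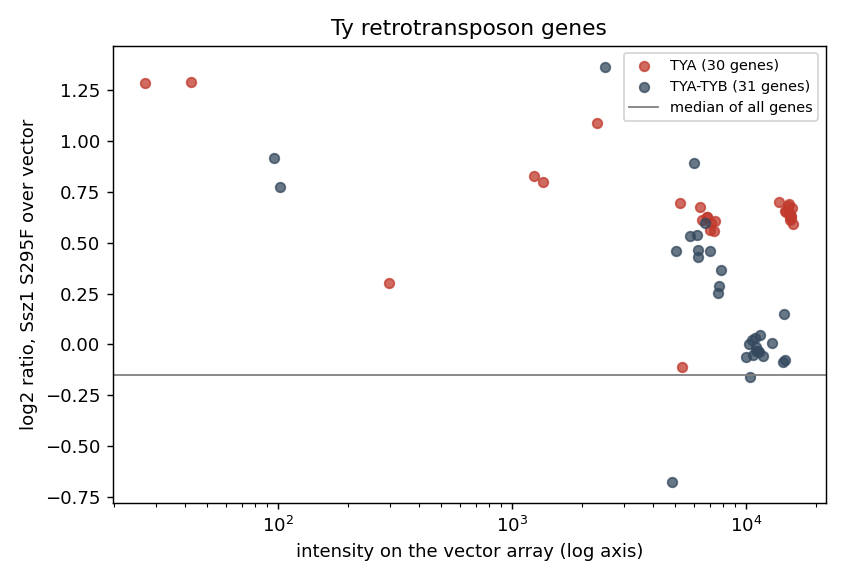
Log2 ratio of Ssz1 S295F over vector against the intensity on the vector array (log axis) for 30 TYA and 31 TYA-TYB genes. The TYA genes lie mostly between 0.5 and 0.75, while most bright TYA-TYB genes lie near 0. Of each kind, 21 genes overlap another gene in coding span.

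Of 358 nuclear genes within 30 kb of a chromosome end, 43 were higher (12.0%) and 32 lower (8.94%), against 241 (4.46%) and 128 (2.37%) of the 5401 genes further in. After the span adjustment 46 genes near ends were higher and 9 lower, against 239 and 45 further in. The left end was taken as base 1 and the right end as the last base of the last measured gene. The lower genes near ends held 13 of the 21 PAU genes measured, a set of near-identical wall mannoprotein genes. After the span adjustment none of the 13 stayed past 2-fold, with ratios of -0.73 to -0.46. A low reading on at least 1 array stood behind 16 of the 43 higher and 12 of the 32 lower genes at the ends. YEL076C-A, an uncharacterised gene near an end of chromosome V that overlaps another gene, read 8857 with Ssz1 S295F, 6585 with the Zuo1 fragment and 1609 with vector, a ratio of 2.46 ± 0.07. YFL065C, on chromosome VI, read 7528 with Ssz1 S295F, 5908 with the Zuo1 fragment and 1765 with vector. Copies at the ends can share sequence, so such readings may come from more than 1 gene.

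No run of 3 or more adjacent genes called in the same direction was found. Of 1479 pairs of adjacent genes read in opposite directions from the region between them, 9 had both genes past 2-fold in the same direction. Over all genes, 5.02% were higher and 2.77% lower, and a chance number of such pairs was not tested. Gaps ran from 344 to 2333 bp, and lower pairs were among the 9. SPL2 and ARO9, 608 bp apart on chromosome VIII, had -1.15 and -1.18. YCR102C and PAU3, 2333 bp apart near an end of chromosome III, had -1.49 and -1.13. TGL5 and WHI5, 344 bp apart on chromosome XV, had ratios of 1.77 and 3.15. NAM2, the mitochondrial leucyl-tRNA synthetase gene, and SMC6 lie 536 bp apart on chromosome XII and had 1.31 and 1.61. MES1, the cytosolic methionyl-tRNA synthetase gene, and YGR266W lie 802 bp apart on chromosome VII and had 1.23 and 1.02.

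The share of genes past 2-fold moved with level and span. With genes sorted by mean level into 4 equal bins, 127 of 1445 in the lowest bin were higher and 137 lower, against 17 and 2 of 1444 in the highest. With genes sorted by coding span into 5 bins, 36 of the shortest 1158 were higher and 106 lower, while in the bin next to the longest 124 of 1151 were higher and 10 lower. Whether level and span had a part in the results above was not tested.

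**Figure D5:**
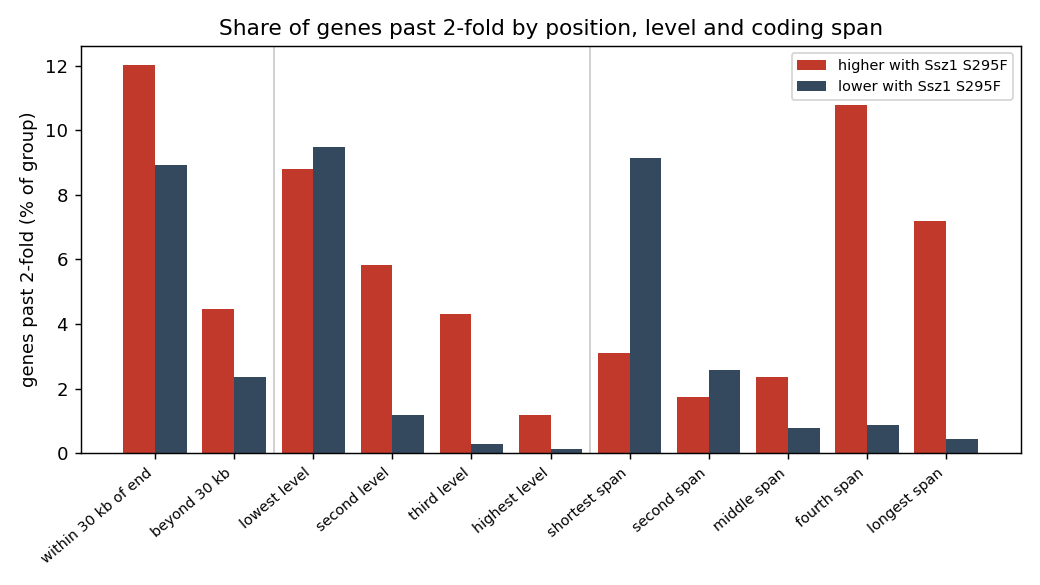
Share of genes past 2-fold (% of each group) that were higher (red) or lower (dark) with Ssz1 S295F, by distance from a chromosome end, by 4 bins of mean level and by 5 bins of coding span. Genes within 30 kb of an end reach 12.0% higher and 8.94% lower, and the lowest level bin and the shortest span bin hold most lower genes.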

How the data were processed

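The report covers 2 of 3 one-colour Cy3 NimbleGen arrays, 1 array of RNA pooled from 3 cultures per plasmid. The intensity values were deposited by the authors after RMA, per the submitters' processing notes, which give no version. Each gene has an intensity from each of 3 blocks, per the file headers. Here log2 was taken and averaged over blocks, with no floor or pseudocount, and arrays were subtracted. A size of 2-fold was the rule for calls. Lists of genes, members and alternatives were chosen with earlier results of these data known, 16 lists were added after values were seen, and the planned promoter motifs were not run since no sequences were used here. Named genes were SSZ1, ZUO1, LEU2, TDH3, up to 40 of the largest ratios each way where the brighter array reached its 25th percentile, the 10 largest intensity gains and losses, list members past 2-fold, and divergent pairs. SUC2, GAL1, the regulators, and genes of added lists were picked after values were seen. Coding spans come from the array files' annotation. Span was adjusted for by loess with a fraction of 0.4 (statsmodels 0.14.6), checked on simulated data. Gene names matched 5771 of 5777 loci in a RefSeq gene table. The number of arrays limits the precision.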

Additional observations from a re-analysis of the deposited data

How the results depend on the processing

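The series-wide table, single blocks and leaving out overlapping genes kept the counts within 1.5 times of 290 higher and 160 lower genes. Centring on the median gave 394 higher and 90 lower genes, and quantile normalization 357 and 82. A loess on mean level gave 443 higher and 39 lower genes, and a loess on coding span gave 54 lower. Without the lowest 25% by level, 163 were higher and 23 lower. A 1.5-fold threshold gave 592 higher and 755 lower genes, and a 3-fold threshold gave 135 higher and 25 lower. Named genes past 2-fold were followed, 181 in all, and none changed direction under any of these settings. Only a shift of 2-fold or more could have changed it. Some genes named only in divergent pairs, such as YCR102C, were not followed. Of the 181 genes, 136 stayed past 2-fold with the loess on span and 160 with centring. The cause of these moves was not tested. List medians, -0.35 to 0.49 as reported, ran from -0.20 to 0.64 with centring, from -0.33 to 0.20 without the lowest 25% by level, and from -0.23 to 0.95 with the loess on mean level. No paired analysis was possible because each group has 1 array and the values come from no test. No array could be left out, since each group has 1.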
